A study of Mus musculus with 12 samples.

Results

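The genes examined here are the 45 genes of the deposited allelic ratio table that start from 20 to 50 Mb on mouse chromosome X (mm10). The table has 243 rows, or 242 without Xist. The segment holds 48 of them, and Smarca1, Bcorl1 and Utp14a were set aside. Apart from these genes set aside by name, the members were taken by position. The genes set aside remain among the other genes of the table in the comparisons below. Of the 45 genes, 43 are annotated as protein coding in GENCODE M21, and 23 lie on the plus strand. The segment lies far from Xist: the last member ends 54.2 Mb, and the first starts 83.4 Mb, from the lower end of the Xist gene.

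The cells were Cast x 129S hybrid female mouse embryonic stem (mES) cells kept on inactivated fibroblast feeders, in which a TetOn promoter replaces the Xist promoter on the 129 X chromosome. Doxycycline therefore induces Xist from the 129 allele, which becomes the inactive X (Xi), while the Cast X remains the active X (Xa). There were 6 clones, each sequenced once untreated (NoDox) and once after 24 h with 1.0 µg/mL doxycycline (Dox 24 h). Clone 2B was WT, 6F and 11C had lost 355 bp of the m6A-modified stretch of Xist exon 1, 3B and 4E had lost 153 bp of that in exon 7, and 7E had lost both. In the study's description of the lines, the Cast copy of Xist in 2B, which is not induced, also lacks the exon 7 stretch, 3B and 4E lack that stretch on both alleles, and 7E lacks both stretches on the 129 allele alone, with an intact Cast copy. The exon 1 deletion of 6F is on the 129 allele, and the lines table used here does not list 11C. WT and the double deletion were thus 1 clone each, and no genotype had more than 2.

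In X chromosome inactivation, Xist RNA spreads along the chromosome from which it is transcribed and silences its genes, which evens out X-linked dosage between XX and XY cells. Genes are silenced at different speeds, and some escape. The m6A mark is a methyl group on adenosine, written onto RNA by the METTL3–METTL14 complex, and Xist carries it at a few sites. Chromatin-associated RNA sequencing (ChrRNA-seq) reads mostly nascent RNA, so a change in transcription appears early. The allelic ratio Xi/(Xi + Xa) is 0.5 for equal expression and falls towards 0 as the 129 allele is silenced. It is an average over the cells of a culture, so partial silencing in each cell and full silencing in some cells cannot be told apart. It carries no information on the amount of RNA, and the number of reads behind each ratio is unknown.

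To show the ends of the range, the promoters of 4 members are printed from the RefSeq table (GRCm38.p6, 250 bases before to 50 after the start, in the direction of transcription). Zfp300 (chrX:21089180-21089479, minus strand) and Xpnpep2 (chrX:48108475-48108774, plus strand) had the most negative mean changes. Araf (chrX:20848293-20848592, plus strand) and Rbm10 (chrX:20617253-20617552, plus strand) had the least negative mean changes among members that passed the test for a lower ratio. Capitals mark CpG dinucleotides.
Zfp300: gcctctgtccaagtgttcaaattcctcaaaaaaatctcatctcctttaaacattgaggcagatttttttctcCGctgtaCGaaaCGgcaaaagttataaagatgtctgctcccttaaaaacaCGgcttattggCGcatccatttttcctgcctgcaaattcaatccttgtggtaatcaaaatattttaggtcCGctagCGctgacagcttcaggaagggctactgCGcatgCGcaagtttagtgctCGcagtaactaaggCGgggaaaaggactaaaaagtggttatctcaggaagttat
Xpnpep2: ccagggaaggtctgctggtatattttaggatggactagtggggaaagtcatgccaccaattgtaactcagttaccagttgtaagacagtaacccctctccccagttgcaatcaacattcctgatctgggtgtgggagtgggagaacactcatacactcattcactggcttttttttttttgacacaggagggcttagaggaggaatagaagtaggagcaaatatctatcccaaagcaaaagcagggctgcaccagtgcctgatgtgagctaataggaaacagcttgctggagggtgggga
Araf: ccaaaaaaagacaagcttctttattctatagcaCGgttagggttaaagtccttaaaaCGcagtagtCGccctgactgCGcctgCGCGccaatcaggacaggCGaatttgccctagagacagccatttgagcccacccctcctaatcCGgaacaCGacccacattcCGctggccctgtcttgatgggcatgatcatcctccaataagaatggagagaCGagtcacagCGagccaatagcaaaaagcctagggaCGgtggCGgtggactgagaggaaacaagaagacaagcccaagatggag
Rbm10: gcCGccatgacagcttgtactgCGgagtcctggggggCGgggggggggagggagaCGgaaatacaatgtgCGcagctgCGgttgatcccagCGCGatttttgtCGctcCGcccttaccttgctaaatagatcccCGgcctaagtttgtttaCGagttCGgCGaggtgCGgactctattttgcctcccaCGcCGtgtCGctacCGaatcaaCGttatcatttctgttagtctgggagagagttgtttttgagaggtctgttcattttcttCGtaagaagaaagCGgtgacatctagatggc

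These windows hold 11, 0, 14 and 22 CpGs, respectively. A promoter was found for 42 of the 45 members, with a median of 13 CpGs and a range of 0 to 33. Across these 42 members, more CpGs went with a smaller decrease (Spearman's rho = 0.337), whereas over the 199 genes of the table with a promoter rho was 0.0874. Over the 38 of these members with a NoDox mean of 0.2 to 0.8, rho was 0.273. All are descriptions across genes that share the same libraries. Short motifs were searched on both strands. The NRF1 core GCGCATGC was found in 4 of 42 members (9.52%), including Zfp300, compared to 9.05% of the table's promoters and 2.71% of all promoters. ATGGCG, the core of the YY1 motif, was found in 5 members (11.9%), including Rbm10, compared to 19.6% of the table's promoters and 8.93% of all promoters. The ETS core CCGGAAG was found in 11.9% of members and 11.1% of the table, GGGCGG (GC box) in 54.8% and 62.8%, and CCAAT in 54.8% and 49.2%. Matches of different motifs may share bases. A match describes only the letters in the window.

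Some facts of the libraries bear on the results below. The Xist ratio lay between 0.911 and 1.0 in NoDox and between 0.986 and 0.998 at Dox 24 h, so its RNA came almost entirely from the 129 allele in each library. The members started near equal expression in 5 clones, with median NoDox ratios of 0.513 (11C), 0.521 (6F), 0.527 (2B), 0.531 (7E) and 0.543 (3B). Clone 4E stood apart with 0.794, and its part in the results was examined by leaving it out. Its NoDox ratio exceeded that of each other clone in 38 of 45 members. Over all 242 genes, the median NoDox ratio was 0.796 in 4E and 0.506 to 0.519 in the other clones. At Dox 24 h, 17 of 242 genes had a ratio of exactly 0 in 6F, compared to 0 to 2 in the other clones. The SD of the change over these genes was 0.183 in 6F and 0.0866 to 0.136 in the others. The table holds genes of chromosome X only, so the ES cell label could not be checked against pluripotency markers.

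**Figure D1:**
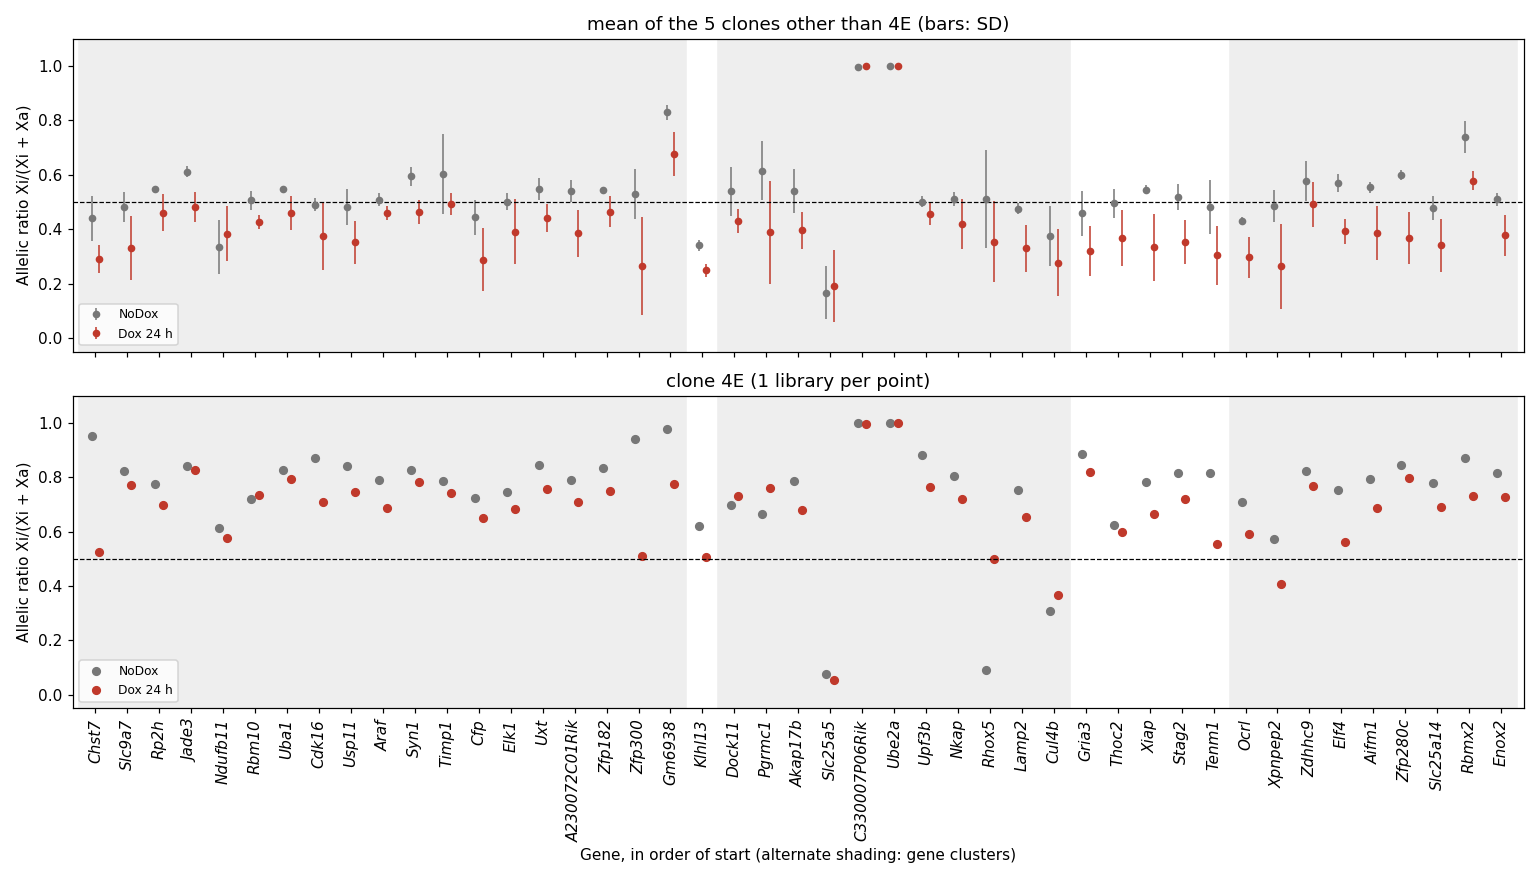
Allelic ratio Xi/(Xi + Xa) of the 45 genes in order of start, in NoDox (grey) and at Dox 24 h (red). The upper panel gives means of the 5 clones other than 4E with SD bars, the lower panel the single library pair of 4E, and the dashed line marks 0.5. In 4E the median NoDox ratio is 0.794, and C330007P06Rik and Ube2a lie at or near 1 in both panels.

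Xist induction lowered the allelic ratio of most genes of the segment. At an adjusted p under 0.05 (limma on the within-clone change, adjusted over 242 genes), 32 of 45 members had a lower ratio, beside a background of 71.5% of all genes tested, and 0 had a higher ratio, beside a background of 0% (0 also at an unadjusted p). The members' share, 71.1%, was that of the table. The ratio was lower in each of the 6 clones for 27 members (60%), beside 61.6% of all genes. Of the 32 calls, 11 were lost when a single clone was left out. Araf lost its call in each of the 6 such fits and Rbm10 in 5. Rp2h, Usp11 and Pgrmc1 lost theirs in 4, Uba1 and Zfp182 in 3, Elk1, Uxt and Xpnpep2 in 2, and Thoc2 in 1. Leaving out 3B or 4E lost 9 calls each, and any other clone 4 or 5. The median change over members, Dox 24 h minus NoDox, was -0.136 in 2B, -0.199 in 6F, -0.142 in 11C, -0.0698 in 3B, -0.0828 in 4E and -0.0682 in 7E. Its mean was -0.116 ± 0.0521 (SD, n = 6 clones). The 3 clones with the exon 7 region intact thus had the larger decreases.

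Set beside the rest of the table, the median decrease of the members was somewhat smaller. Starts in the table run from 6.2 to 103.5 Mb, so the chromosome beyond is not covered. The other 197 genes of the table had a mean of clone medians of -0.141, and the 89 genes from 50 to 80 Mb one of -0.154. The members' median was less negative than that of the other genes in 6 of 6 clones, by 0.0250 ± 0.00718 (SD, n = 6). With only genes whose NoDox ratio averaged 0.2 to 0.8 in the 5 clones other than 4E, the values were -0.123 for 41 members and -0.145 for 190 other genes. No test of this difference was made.

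**Figure D2:**
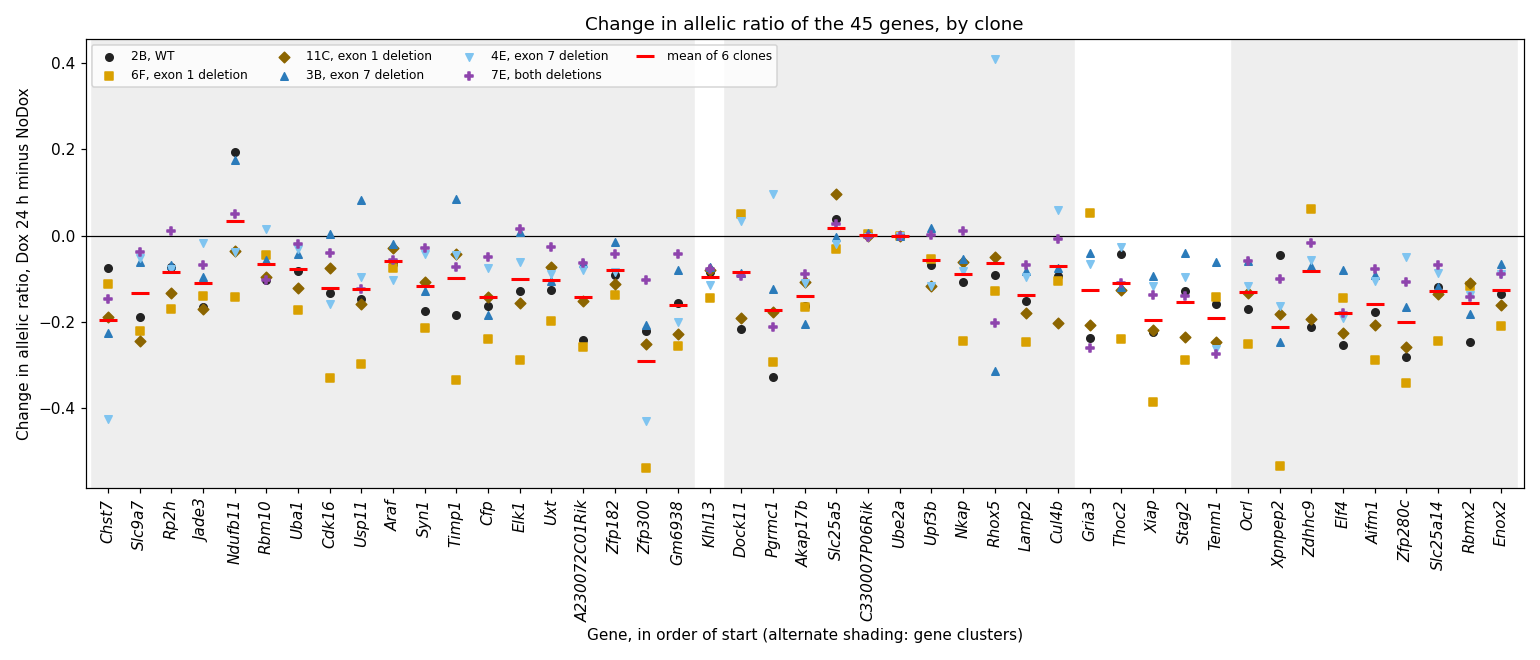
Change in allelic ratio, Dox 24 h minus NoDox, of the 45 genes in order of start, with 1 symbol per clone and a red bar for the mean of 6 clones. Alternate shading marks the gene clusters. Zfp300 has the most negative mean (-0.292), and the means of Slc25a5, C330007P06Rik and Ube2a lie at or close to 0.

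Along the segment the genes fell into 5 clusters separated by more than 1 Mb between starts, with a gap of 12.7 Mb between the second and the third. The change differed between them. It was largest in the 5 genes from Gria3 to Tenm1 (41.40 to 42.53 Mb), where the mean of clone medians was -0.153 ± 0.0690 (SD, n = 6), and in the 9 genes from Ocrl to Enox2 (47.91 to 49.01 Mb), where it was -0.148 ± 0.0627. It was -0.111 ± 0.0637 in the 19 genes from Chst7 to Gm6938 (20.06 to 21.31 Mb) and -0.0955 ± 0.0280 for Klhl13, which stands alone at 23.22 Mb. It was -0.0661 ± 0.0476 in the 11 genes from Dock11 to Cul4b (35.89 to 38.53 Mb). Of these, 3 started near 0 or 1, and the other 8 had -0.102 ± 0.0487, a larger decrease than that of Klhl13. The SDs of the clusters overlap, but each is taken over the same 6 clones of different genotypes. They hold the differences between clones and do not measure the difference between clusters within a clone.

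The order of the clusters differed between clones. The smallest change was that of Klhl13 in 2B and 11C, of the first cluster in 3B, and of the cluster from Dock11 to Cul4b in 6F, 4E and 7E. In 3B the cluster from Gria3 to Tenm1 (-0.0606) was almost level with the first (-0.0604). The largest change was that of the last cluster in 2B, 6F and 3B, of the cluster from Gria3 to Tenm1 in 11C and 7E, and of Klhl13 in 4E. From the first to the last cluster, the median became more negative in 6 of 6 clones, by -0.0379 ± 0.00931 (SD, n = 6), with differences from -0.0277 in 4E to -0.0483 in 11C. Members passing the test numbered 16 of 19 in the first cluster, 3 of 11 from Dock11 to Cul4b, 4 of 5 from Gria3 to Tenm1 and 8 of 9 from Ocrl to Enox2, and Klhl13 passed. These counts stand beside 71.5% of all genes. Without clone 4E, which starts high, they were 8, 4, 4 and 7, and Klhl13 passed, beside 133 of 242 genes. Without 3B they were 10, 2, 3 and 7, beside 135 of 242 genes. The first cluster had 12 to 14 with any other single clone left out, so its count was lower in each fit with 5 clones. Its median without 4E, -0.117, was close to that with it. Across the 45 members, Spearman's rho between mean change and start was -0.306, beside -0.368 over all 242 genes. By clone, rho across the members ran from -0.337 in 7E to -0.0487 in 6F. These are descriptions over genes of the same 12 libraries.

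**Figure D3:**
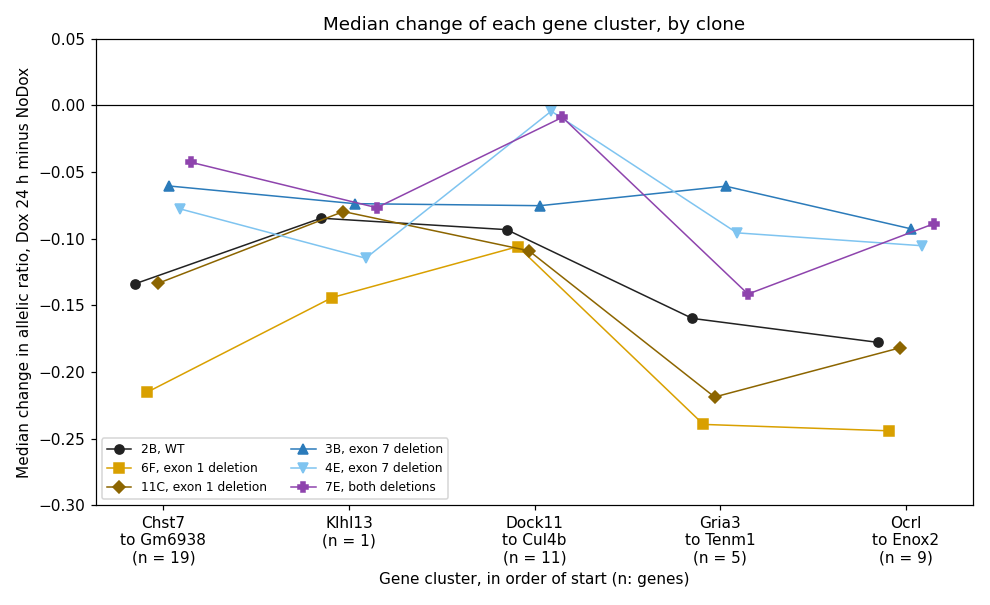
Median change in allelic ratio of each gene cluster in order of start, with 1 line per clone and the number of genes under each cluster. Each line is lower at the last cluster than at the first, with a mean difference of -0.0379, and the lines of 4E and 7E come closest to 0 at the cluster from Dock11 to Cul4b.

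The first cluster, from Chst7 to Gm6938, held both the largest decrease of the segment and genes with little change. Zfp300, a zinc-finger gene (21079150 to 21089229), had NoDox ratios of 0.472 in 2B, 0.540 in 6F, 0.477 in 11C, 0.687 in 3B, 0.942 in 4E and 0.474 in 7E. At Dox 24 h the ratios were 0.250, 0, 0.225, 0.479, 0.512 and 0.370 in the same order. The ratio was lower in each clone, and the largest changes were those of 6F, where the ratio listed was exactly 0, and 4E. The mean change was -0.292 ± 0.161 (SD, n = 6; limma adjusted p = 0.0137), and -0.233 in the fit without 6F. Its neighbour Zfp182, another zinc-finger gene whose start lies 27.2 kb away, changed by -0.0807 ± 0.0448 (limma adjusted p = 0.0147). Zfp182 was less negative than Zfp300 in 6 of 6 clones, with a mean difference of 0.212 ± 0.134.

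Chst7, which encodes a carbohydrate sulfotransferase of the Golgi (20059570 to 20097520), changed by -0.076 in 2B, -0.113 in 6F, -0.189 in 11C, -0.227 in 3B, -0.425 in 4E and -0.147 in 7E. Its mean was -0.196 ± 0.124 (limma adjusted p = 0.012). Clone 4E had the largest decrease, from 0.951 to 0.526, and the WT clone the smallest. Without 4E the mean change was -0.150.

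At the other end, Araf, which encodes a RAF family kinase of the MAP kinase pathway, changed by -0.0586 ± 0.0311, within -0.104 (4E) to -0.020 (3B). It passed narrowly (limma adjusted p = 0.0468) and passed in none of the 6 fits that leave out a clone. Rbm10, a splicing regulator, changed by -0.0653 ± 0.0460 (limma adjusted p = 0.0496), with a small increase of 0.014 in 4E, and it passed only without 6F among those fits. Ndufb11, a subunit of respiratory complex I (20615326 to 20617564), did not pass (limma adjusted p = 0.511). Its ratio changed by 0.194 in 2B, -0.144 in 6F, -0.036 in 11C, 0.176 in 3B, -0.038 in 4E and 0.050 in 7E. The clones pointed both ways within the intact and within the deleted arm. Ndufb11 is 2.24 kb long and overlaps Rbm10 by 62 bases on the opposite strand, the starts lying 61 bases apart.

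A second pair of genes with opposed starts is Uxt, a prefoldin-like cofactor, and A230072C01Rik, which overlap by 303 bases. Uxt changed by -0.103 ± 0.058 and A230072C01Rik by -0.144 ± 0.0893, and A230072C01Rik had the larger decrease in 4 of 6 clones. Timp1, an inhibitor of matrix metalloproteinases, lies within Syn1, a synaptic vesicle gene on the other strand. Syn1 passed (-0.116 ± 0.0726, limma adjusted p = 0.011), whereas Timp1 did not (-0.0996 ± 0.144, limma adjusted p = 0.101), with changes from -0.335 in 6F to 0.084 in 3B. The counting of reads was by strand. Klhl13, an adaptor of a CUL3 ubiquitin ligase, started low, at 0.307 to 0.361 in 5 clones and 0.621 in 4E, and was lower in each clone with changes from -0.144 to -0.074 and a mean of -0.0955 ± 0.0280 (limma adjusted p = 0.00955).

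The other genes of the first cluster that passed lay between these ends. Uba1, the main ubiquitin-activating enzyme, had NoDox ratios of 0.531 to 0.559 in 5 clones and 0.826 in 4E, and it changed by -0.082 in 2B, -0.173 in 6F, -0.122 in 11C, -0.044 in 3B, -0.032 in 4E and -0.021 in 7E (mean -0.0788 ± 0.0593, limma adjusted p = 0.0171). It was lower in each clone, with the 3 smallest decreases in the clones lacking the exon 7 stretch. Cfp, which encodes the complement factor properdin, had a mean change of -0.143 ± 0.0706 (limma adjusted p = 0.00885), and Jade3, a PHD-finger protein of histone acetyltransferase complexes, one of -0.110 ± 0.0604 (limma adjusted p = 0.00685). Usp11, a deubiquitinase, changed by -0.124 ± 0.123 (limma adjusted p = 0.0253), with a ratio 0.083 higher at Dox 24 h in 3B. Rp2h (Rp2), a GTPase-activating protein for ARL3, changed by -0.0853 ± 0.0623 (limma adjusted p = 0.0267) and was lower in 5 clones. Cdk16, a cyclin-dependent kinase, did not pass (-0.122 ± 0.118, limma adjusted p = 0.0547), with -0.330 in 6F and 0.004 in 3B.

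Gm6938 and Rbmx2, a spliceosomal RNA-binding protein of the last cluster, started well above 0.5 and were still lower in each clone. Gm6938 had NoDox ratios of 0.845 in 2B, 0.867 in 6F, 0.808 in 11C, 0.833 in 3B, 0.976 in 4E and 0.797 in 7E. Its Dox 24 h ratios were 0.688, 0.610, 0.579, 0.754, 0.775 and 0.754 in the same order. The treated and untreated libraries did not overlap, and the mean change was -0.161 ± 0.0850 (limma adjusted p = 0.00821). Rbmx2 had a median NoDox ratio of 0.756 and a median Dox 24 h ratio of 0.592 and changed by -0.156 ± 0.0509 (limma adjusted p = 0.00366).

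The cluster from Dock11 to Cul4b included a run of 3 neighbours that did not start near 0.5. Ube2a, a ubiquitin-conjugating enzyme (36874366 to 36884220), had a ratio of 1 in all 12 libraries. C330007P06Rik lay from 0.995 to 1 in NoDox and from 0.996 to 1 at Dox 24 h. Both values mean that RNA was assigned to the 129 allele only or nearly so, with and without Xist, and the change of Ube2a was 0 in each clone. Slc25a5, which encodes an ADP/ATP carrier of the mitochondrial inner membrane, was at the other end. Its NoDox ratios were 0.088 in 2B, 0.110 in 6F, 0.270 in 11C, 0.088 in 3B, 0.075 in 4E and 0.274 in 7E. Its mean change was 0.0177 ± 0.0469 (limma adjusted p = 0.509).

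Of the 8 other genes of the cluster, 3 (37.5%) passed. Those were Pgrmc1, a haem-binding membrane protein, Akap17b, and Lamp2, a major protein of the lysosomal membrane. Pgrmc1 changed by -0.328 in 2B, -0.294 in 6F, -0.178 in 11C, -0.125 in 3B, 0.095 in 4E and -0.211 in 7E (mean -0.173 ± 0.151, limma adjusted p = 0.0253). It was lower in each clone but 4E. Akap17b was lower in each clone, with a mean of -0.140 ± 0.0449 (limma adjusted p = 0.00503), and so was Lamp2, with -0.138 ± 0.0685 (limma adjusted p = 0.00429).

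Rhox5, a homeobox gene of the Rhox cluster, went against the other clones in 4E. Its NoDox ratio was 0.647 in 2B, 0.271 in 6F, 0.405 in 11C, 0.714 in 3B, 0.091 in 4E and 0.520 in 7E. The change was 0.409 in 4E and between -0.314 and -0.050 in the other 5 clones, with a mean of -0.063 ± 0.249 (limma adjusted p = 0.577). Without 4E, the only clone in which it rose, the mean change was -0.157. Of the 7 members whose NoDox ratio was not highest in 4E, 6 lie in this cluster: Pgrmc1, Slc25a5, C330007P06Rik, Ube2a, Rhox5 and Cul4b, the last of which encodes a ubiquitin ligase scaffold. The other was Timp1. Ube2a and C330007P06Rik had a NoDox ratio of 1 in 4E and also in 11C and 7E, so neither could be highest in 4E. Upf3b (nonsense-mediated decay), Nkap, Dock11 and Cul4b did not pass, with mean changes from -0.0903 (Nkap) to -0.0564 (Upf3b).

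From Gria3 to Tenm1, 4 of 5 genes had a lower ratio in each clone and passed. Xiap, an inhibitor of caspases, changed by -0.225 in 2B, -0.385 in 6F, -0.219 in 11C, -0.093 in 3B, -0.117 in 4E and -0.137 in 7E, a mean of -0.196 ± 0.107 (limma adjusted p = 0.00416). The 3 clones with the exon 7 region intact all lay below the 3 deleted clones. Stag2, a cohesin subunit, had a mean of -0.155 ± 0.0914 (limma adjusted p = 0.00336), and Thoc2, a subunit of the THO complex in mRNA export, one of -0.111 ± 0.0758 (limma adjusted p = 0.0173).

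Tenm1, a teneurin and at 742 kb the longest member, changed by -0.160 in 2B, -0.142 in 6F, -0.248 in 11C, -0.061 in 3B, -0.263 in 4E and -0.274 in 7E (mean -0.191 ± 0.0845, limma adjusted p = 0.00772). The arms overlapped, with the largest decrease in the double deletion. Gria3, an AMPA-type glutamate receptor subunit, was the member of this cluster that did not pass (-0.127 ± 0.126, limma adjusted p = 0.0849). Its ratio was higher by 0.052 in 6F, the only clone in which it rose. Without 6F, a clone picked here by its value, the fitted change was -0.182.

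From Ocrl to Enox2, 8 of 9 genes passed and each of these 8 was lower in 6 of 6 clones. Xpnpep2, a membrane aminopeptidase (48108725 to 48136981), had Dox 24 h ratios of 0.352 in 2B, 0 in 6F, 0.273 in 11C, 0.283 in 3B, 0.407 in 4E and 0.405 in 7E. Its changes ran from -0.535 in 6F to -0.044 in 2B, with a mean of -0.212 ± 0.173 (limma adjusted p = 0.0386). The value of 6F is far from the others, and without it the fitted change was -0.142. Zfp280c, a zinc-finger gene, changed by -0.283 in 2B, -0.342 in 6F, -0.258 in 11C, -0.166 in 3B, -0.051 in 4E and -0.108 in 7E, a mean of -0.201 ± 0.111. It had the lowest p of the members (limma adjusted p = 0.00311).

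Enox2 (-0.125 ± 0.0543, limma adjusted p = 0.00416) was the least negative of the 8 genes that passed in this cluster. Zdhhc9, a palmitoyltransferase, did not pass (-0.0816 ± 0.105, limma adjusted p = 0.11), and its ratio was 0.063 higher at Dox 24 h in 6F. Without 6F, the only clone in which it rose, its fitted change was -0.123. Elf4, an ETS factor, and Aifm1, a mitochondrial flavoprotein with a role in cell death, changed by -0.180 ± 0.0614 and -0.159 ± 0.0819.

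By role, a lower ratio was found in 8 of 9 genes of transcription and chromatin, from Zfp300 (-0.292) to Rhox5 (-0.063), which did not pass. It was found in 4 of 6 genes of RNA processing, export and decay, from Rbmx2 (-0.156) to Upf3b (-0.0564, not passed), and in 4 of 6 of the ubiquitin system, from Xiap (-0.196) to Ube2a (0, not passed). Among genes for kinases, small GTPase signalling and membrane traffic, 6 of 9 passed, from Pgrmc1 (-0.173) to Araf (-0.0586). Among those for secreted, cell-surface and synaptic proteins, 6 of 8 passed, from Xpnpep2 (-0.212) to Timp1 (-0.0996, not passed). Mitochondrial proteins had 2 of 4, from Aifm1 (-0.159) to Ndufb11 (0.0338, not passed). These counts are read beside the background of 71.5%. Without 4E, where 133 of 242 genes passed, they were 6 of 9 (transcription), 3 of 6 (RNA), 2 of 6 (ubiquitin), 4 of 9 (kinases and traffic), 5 of 8 (secreted and surface) and 2 of 4 (mitochondrial). The roles were assigned from general knowledge of the genes. Some are loose: Pgrmc1, a haem-binding membrane protein, was counted under kinases and traffic.

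The exon 7 comparison asked whether silencing of these genes differs when the exon 7 m6A region of Xist is missing. The ratio fell less in the 3 clones lacking it, with a mean of clone medians of -0.0736 ± 0.00803 (SD, n = 3), than in the 3 intact clones, with -0.159 ± 0.0347 (SD, n = 3). The difference of 0.0858 was close to that over all 242 genes, 0.0865. It was 0.0601 between the exon 7 deletion alone and WT, and 0.103 between the double deletion and the exon 1 deletion alone. The arms did not overlap at 4 of the 5 clusters and overlapped at Klhl13. No p is given for these medians, and with 3 clones against 3 an exact permutation test of a single value cannot go below 0.1.

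Gene by gene, the exon 7 coefficient was positive in 39 of 45 members, beside a background of 86.4%, with a median of 0.0838 over members and 0.0775 over all genes. For 14 members, the 3 deleted clones all had a smaller decrease than the 3 intact clones, beside 32.2% of all genes. These were Slc9a7, Jade3, Uba1, Usp11, Elk1, A230072C01Rik, Zfp182, Lamp2, Cul4b, Xiap, Ocrl, Aifm1, Zfp280c and Enox2. None was separated in the other direction, beside 0.413%. At an adjusted p under 0.05 in limma, 0 members passed, beside a background of 0%, and 5 did at an unadjusted p, beside 15.7%.

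**Figure D4:**
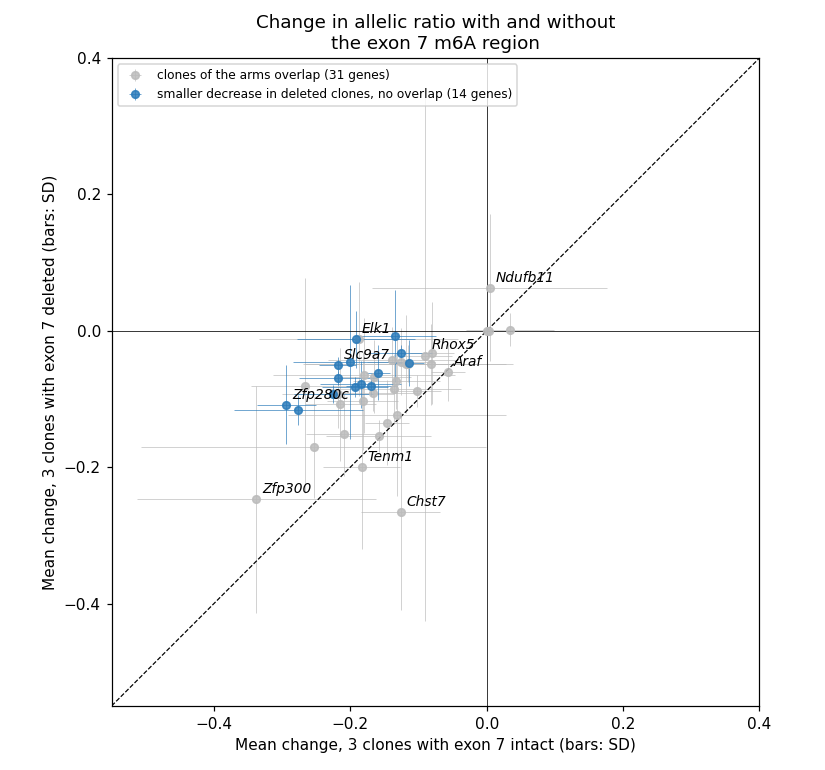
Mean change in allelic ratio of each of the 45 genes in the 3 clones with the exon 7 region deleted (vertical axis) against the 3 clones with it intact (horizontal axis), with SD bars and a dashed line of equality. The 14 genes in blue, whose arms did not overlap, lie above the line, and Chst7 and Tenm1 lie below it.

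The 5 members with the highest exon 7 coefficients were Zfp280c, Elk1, Pgrmc1, Slc9a7 and Timp1. Slc9a7, an organellar sodium/proton exchanger, changed by -0.190 in 2B, -0.221 in 6F and -0.245 in 11C, compared to -0.060 in 3B, -0.052 in 4E and -0.038 in 7E. Each deleted clone lay above each intact clone, and the coefficient was 0.164 ± 0.0359 (SE), with an unadjusted p of 0.00644 and a limma adjusted p of 0.232, the lowest among the members. Leaving out single clones kept the coefficient between 0.134 and 0.194. For Zfp280c the coefficient was 0.183 ± 0.0514 (SE, limma adjusted p = 0.28), and 0.159 to 0.209 with single clones left out.

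Elk1, an ETS factor that responds to MAP kinase signals, changed by -0.129 in 2B, -0.290 in 6F and -0.156 in 11C, and by 0.009 in 3B, -0.061 in 4E and 0.015 in 7E. The ratio was thus not lower in 3B and 7E (coefficient 0.170 ± 0.0612 SE, limma adjusted p = 0.292). Its coefficient ran from 0.103 without 7E to 0.238 without 2B. For Pgrmc1 (0.169 ± 0.101 SE) and Timp1 (0.160 ± 0.0965 SE) the arms overlapped. That of Pgrmc1 ran from 0.0246 without 2B to 0.313 without 7E and was 0.101 without 4E, and that of Timp1 from 0.104 without 6F to 0.229 without 11C. The lowest coefficients were those of Chst7 (-0.123 ± 0.0886 SE), Tenm1 (-0.0405 ± 0.0734 SE) and Slc25a5 (-0.0273 ± 0.0495 SE), none of which passed. With single clones left out, Chst7 ran from -0.249 without 7E to 0.00427 without 2B, Tenm1 from -0.0895 without 3B to -0.00219 without 7E, and Slc25a5 from -0.0580 without 6F to -0.00316 without 11C.

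The exon 1 comparison asked the same of the exon 1 m6A region. The mean of clone medians was -0.137 ± 0.0657 (SD, n = 3) in deleted and -0.0964 ± 0.0353 (SD, n = 3) in intact clones, a difference of -0.0403 that lay within the spread of the clones. These arms are not balanced for exon 7, whose stretch is missing in 7E of the deleted clones and in 3B and 4E of the intact ones. The difference therefore mixes both deletions. It was -0.0344 between the exon 1 deletion alone and WT. The exon 1 coefficient, adjusted for exon 7, had a median of -0.00827 over members and -0.0147 over all genes. At an adjusted p under 0.05 in limma, 0 members passed, beside a background of 0%, and 0 did at an unadjusted p, beside 2.07%. Stag2 was the only member whose arms did not overlap. Its decrease was larger in the deleted clones, beside 6.61% of all genes in that direction and 0.413% in the other. Its changes of -0.288 in 6F, -0.237 in 11C and -0.142 in 7E lay below -0.128 in 2B, -0.041 in 3B and -0.096 in 4E, with a coefficient of -0.104 ± 0.0409 (SE, limma adjusted p = 0.985). The double deletion and the exon 7 deletion alone differed by 0.00813 in the members' median change, with 1 clone against 2 and no test.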

How the data were processed

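ChrRNA-seq of 12 libraries from 6 clones was analysed. The deposited values are fractions, the allelic ratio Xi/(Xi + Xa) that the authors computed per gene and library. Per the methods of the study, rRNA reads were removed with bowtie2, the rest were aligned with STAR to mm10 with strain-specific positions masked, split by allele with SNPsplit and counted per gene by strand with featureCounts, and genes needed a minimum of allele-informative reads. Masking limits mapping bias, and the NoDox ratio serves as the background for what remains. The table gives no counts, so depth is unknown and no interval that needs it is given. Another 10 columns of per-sample values (6 headed WT, 4 headed as repeats of 11C) matched no sample title and were not used.

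For each gene and clone the change is the Dox 24 h minus the NoDox ratio, the libraries being paired by the clone in their titles. The limma package (3.58.1, R 4.3.3) was fitted to the changes of all 242 genes (mean change, exon 7 and exon 1 deletion as additive terms coded -0.5 and 0.5) and adjusted by Benjamini-Hochberg. A call is an adjusted p under 0.05. P-values measure the spread between these clones. Residual spread is shared by genotypes, 2 of which had a single clone. Clusters were split where starts lay more than 1 Mb apart. Starts are printed 1-based. Names and biotypes came from GENCODE M21 and promoters from RefSeq (GRCm38.p6), matched by symbol with a start within 1000 bases of the table's. Named genes are, per cluster, the 2 most and 2 least negative mean changes (all in clusters of 5 or fewer), the 5 highest and 3 lowest exon 7 coefficients, genes with overlapping or nested positions, genes with a change of 0 in every clone, and the extremes of each role. The other members described (Rp2h, Jade3, Uba1, Cdk16, Usp11, Cfp, Zfp182, Gm6938, Dock11, Nkap, Cul4b, Lamp2, Elf4 and Ocrl) were added after their values were seen. The members, lists and clusters were chosen with earlier results of these data known. Alternatives were the log2 odds of the ratio (kept within 0.01 and 0.99, or 0.05 and 0.95), filters on the starting ratio (0.3 to 0.7) and on exact 0 and 1, a common NoDox baseline, no replicate block, other cluster gaps, and each clone left out. The counts without 4E by cluster and role, and the restriction to starting ratios of 0.2 to 0.8, were added after seeing the data. The remaining steps ran in Python 3.11.15 (pandas 2.3.3, numpy 2.4.6, matplotlib 3.10.9).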

Additional observations from a re-analysis of the deposited data

Results flagged for a closer look

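Over the 6 clones, 52 measures of the members were examined for a clone standing apart (Dixon's criterion), of which 2 did, with 2.6 expected by chance. The median NoDox ratio of the members was 0.794 in 4E, compared to 0.513 to 0.543 in the other 5 clones. The change of Rhox5 was 0.409 in 4E, compared to -0.314 to -0.050 in the others, and it started from a NoDox ratio of 0.091 in that clone. The cause of either was not tested.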

How the results depend on the processing

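The count of members with a lower ratio, 32, was 26 and 29 on the log2 odds scales, 32 of the 35 members starting from 0.3 to 0.7, 32 of the 41 without an exact 0 or 1, and 23 to 32 when single clones were left out. With a common NoDox baseline it was 16, members lower in all 6 clones numbered 5 in place of 27, members with non-overlapping exon 7 arms numbered 30 in place of 14, and the median change turned to 0.133 in 4E and became -0.190 in 2B. By its construction, this baseline adds the high start of 4E to its change. No count over all genes is given beside the 5 and 30, or beside calls lost or kept with clones left out. Nor is one given beside the members at an unadjusted p for either deletion in the alternative fits. Without the replicate block (no pairing by clone) 1 member passed and 17 of 242 genes. On the log2 odds scales, 143 and 154 of 242 genes passed. With the filters on the starting ratio and on exact 0 and 1, 158 of 186 and 172 of 217 genes passed. Over all genes, 173 passed, 111 with the common baseline, and 133 to 165 with a clone left out. On the log2 odds scales the mean of clone medians was -0.740 (another unit), and the last minus the first cluster was -0.288. Left-out clones moved the mean of clone medians from -0.126 to -0.0999 and the cluster difference from -0.0399 to -0.0358, and splitting clusters at 2 or 0.5 Mb gave -0.0393 and -0.0379. No member passed for the exon 7 or exon 1 deletion in any limma fit run, with 0 to 7 and 0 to 1 members at an unadjusted p under 0.05. Of the 32 members, 21 passed in every fit with a clone left out and 26 on log2 odds kept within 0.01 and 0.99. Unknown depth limits the reading of exact 0 and 1, as for Zfp300 and Xpnpep2 in 6F. The Dox 24 h library of 6F held 17 exact 0 ratios over all genes.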

Other observations

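Gene length and change were related unevenly among clones. Across the 45 members, Spearman's rho between the change and the log10 gene length was -0.499 in 11C and -0.417 in 7E, compared to 0.113 in 6F and -0.0329 in 4E. For the mean change it was -0.236, and -0.121 over the 41 members starting from 0.2 to 0.8, beside -0.334 over all 242 genes. The change per member was most alike between 2B and 11C (rho = 0.589) and least alike between 3B and 4E (rho = 0.138), which share a genotype. The next lowest pairs were 2B and 4E (0.149), 6F and 7E (0.174) and 6F and 3B (0.176), which do not share one. These are descriptions across genes of the same libraries.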
